A study of Mus musculus with 2 samples.

Results

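The cell division machinery was examined through 42 genes: D cyclins, their kinases and inhibitors, the genes of entry into S phase, the DNA replication genes and the mitotic genes. Members were matched by gene symbol, and 42 of 42 symbols were found among the 55536 annotated mouse genes (GENCODE M21, genome build mm10). The list was chosen with earlier results of these data known. Total RNA was sequenced from the hippocampus of 10-day-old mice of the strain B6CASTF1/J, the hybrid of C57BL/6J with CAST/EiJ. There was 1 group with 2 biological replicates, each started from 300 ng of RNA. Both libraries are labelled male and carry no genetic change or treatment in the labels. Each label names 3 males, and whether a library pools 3 animals is not spelled out. Levels are given in TPM (transcripts scaled to a fixed total per library), which are per length and can be compared between genes, and in expected counts, the estimated number of reads per gene, which are not per length.

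The division cycle runs through G1, S phase, G2 and mitosis, and each step is driven by a cyclin bound to a cyclin-dependent kinase (CDK). D cyclins with Cdk4 or Cdk6 begin the release of E2F factors from the retinoblastoma protein, cyclin E with Cdk2 starts DNA replication, and cyclins A and B with Cdk1 bring cells into mitosis, while inhibitors such as p21 and p27 hold the kinases in check. In the young hippocampus the dentate gyrus still makes neurons and glial precursors still divide, whereas most neurons have left the cycle. In bulk tissue, fewer dividing cells and less RNA per dividing cell cannot be told apart.

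The depth was 32035705 expected counts for replicate 1 and 29747193 for replicate 2. Markers of hippocampus were present, among them Zbtb20 at 149 and 156 TPM and the neuronal kinase gene Camk2a at 788 and 882 TPM. The sex-linked genes went against the label in replicate 2: Xist, which is transcribed from the inactive X chromosome, had 25 counts in replicate 1 and 30841 in replicate 2, and Ddx3y of the Y chromosome had 2164 and 0. Replicate 2 is therefore called the library labelled male, replicate 2, where a direction is drawn from it. Of cell types that divide at this age, radial glia and stem cell markers summed to 455 and 461 TPM over 8 genes. Fabp7, at 276 TPM on average, made up most of this sum. Single genes of the list moved both ways, such as Sox2 with 22.8 and 29.1 TPM and Vim with 59.3 and 49.6. Oligodendrocyte precursor markers summed to 203 and 206 TPM over 6 genes, led by Olig1. Here too genes moved both ways, such as Pdgfra with 42.5 and 37.6 TPM and Olig2 with 20.1 and 22.0. Sums that were near each other are therefore no measure of equal numbers of dividing cells. Choroid plexus markers summed to 12.7 and 355 TPM, myelin markers to 195 and 335 TPM, erythroid markers to 958 and 566 TPM, and meningeal fibroblast markers to 516 and 235 TPM. Ependymal markers summed to 17.6 and 24.2 TPM and microglia markers to 86.0 and 100.1 TPM. All genes of these lists reached 1 TPM in both libraries except in the choroid plexus list, where 3 of 6 did. The leading genes of the remaining lists averaged 214 TPM for Sst of interneurons, 198 for Slc1a3 of astrocytes, 73.2 for Dcx of young neurons, 50.96 for Rgs5 of mural cells, 27.5 for Csf1r of microglia and 8.33 for Rarres2 of ependyma. Ttr led the choroid plexus list with 174, Mbp the myelin list with 125, Hbb-bs the erythroid list with 261 and Ptgds the meningeal list with 209. With 1 group there was no comparison of conditions, and 2 libraries cannot give a two-sided sign-flip p below 0.5, so orders are set against the spread between libraries.

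Promoters of the mitotic and S phase genes held known cell cycle letters in a larger share of windows than all promoters did, and examples of these sequences are shown first. RefSeq promoter windows of 300 bases (250 before and 50 after a transcription start, GRCm38.p6) were found for 34 of the 42 members. The promoters of Aurkb, Ccna2, Ccnd1, Ccnd2, Ccne2, Kif20a, Mcm4 and Tpx2 were not analysed here. The cell cycle genes homology region (CHR) was searched as TTTGAA or TTCGAA, the CCAAT box as CCAAT, E2F letters in 4 forms (TTCCCGC, the form TTGGCGC, the form TTCGCGC and the form TTGCCGC), and the TATA box as TATAAA, on both strands. CHR and CCAAT letters are known from promoters of late cell cycle genes, where the MuvB complexes and NF-Y bind, and E2F letters from promoters of G1/S genes. The 3 mitotic members with the highest level whose 150 bases before the start hold both CHR and CCAAT letters were Top2a (chr11:99024190-99024339, minus strand), Mki67 (chr7:135716380-135716529, minus strand) and Cdk1 (chr10:69352913-69353062, minus strand). They are printed 5′ to 3′ along the gene's strand, with CHR and CCAAT letters of either strand in capitals.

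Top2a: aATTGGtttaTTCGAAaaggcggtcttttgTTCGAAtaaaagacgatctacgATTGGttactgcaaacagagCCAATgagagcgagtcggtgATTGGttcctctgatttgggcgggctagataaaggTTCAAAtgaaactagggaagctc
Mki67: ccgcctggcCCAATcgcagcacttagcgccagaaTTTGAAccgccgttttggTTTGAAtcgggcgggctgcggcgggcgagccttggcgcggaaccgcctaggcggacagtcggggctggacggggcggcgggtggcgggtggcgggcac
Cdk1: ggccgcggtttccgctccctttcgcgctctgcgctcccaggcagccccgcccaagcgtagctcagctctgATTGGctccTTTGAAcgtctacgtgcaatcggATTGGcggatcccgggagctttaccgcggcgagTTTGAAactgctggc

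Each of these stretches holds more than one CHR match, and in Top2a the letters TTCGAA are their own reverse complement. The last 26 bases of the Cdk1 stretch lie in an annotated Cdk1 exon, and the Top2a and Mki67 stretches lie outside annotated exons. The same choice for E2F letters in the S phase genes gave Mcm7 (chr5:138171267-138171416, minus strand), Mcm6 (chr1:128359706-128359855, minus strand) and Rrm1 (chr7:102441545-102441694, plus strand). Capitals mark the E2F letters of either strand, and the Mcm7 stretch precedes an internal start and lies in an intron of the longest transcript.

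Mcm7: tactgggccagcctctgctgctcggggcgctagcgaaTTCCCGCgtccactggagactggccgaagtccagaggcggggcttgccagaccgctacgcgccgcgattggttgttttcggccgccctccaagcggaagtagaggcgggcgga
Mcm6: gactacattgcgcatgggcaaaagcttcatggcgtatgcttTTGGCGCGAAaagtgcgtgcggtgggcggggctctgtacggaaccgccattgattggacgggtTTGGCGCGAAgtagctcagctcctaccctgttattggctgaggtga
Rrm1: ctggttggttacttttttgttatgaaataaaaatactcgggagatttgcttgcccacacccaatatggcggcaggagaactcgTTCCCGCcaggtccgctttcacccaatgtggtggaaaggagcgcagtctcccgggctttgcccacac

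In Mcm6 each capital run is an overlap of TTGGCGC on the gene's strand with TTCGCGC on the other strand. Among the 16 mitotic members with a window, 12 held CHR letters (75.0% of windows), against 19.2% of all 32851 windows. The CCAAT letters were in 14 of the 16 mitotic windows (87.5%), against 37.4% of all windows. All 12 mitotic windows with CHR letters also held CCAAT letters, a pair present in 7.52% of all windows. E2F letters were in 3 of the 16 mitotic windows (18.8%) and in 7 of the 11 S phase windows (63.6%), against 9.57% of all windows. The 11 S phase windows were of 10 genes, and both windows of Mcm7 held E2F and CCAAT letters. S phase windows also held CCAAT letters in 10 of 11 cases and CHR letters in 3 of 11. TATA letters were in 0 of the 16 mitotic windows and in 1 of the 11 S phase windows, against 13.6% of all windows. No CHR letters were found in the windows of the D cyclins (2 windows, both of Ccnd3), G1 kinases (2), CDK inhibitors (3, of 2 genes) and G1/S genes (3). With 19.2% of all windows holding CHR letters, so few windows cannot show that these groups lack them. These are matches of letters in a fixed window, and they measure no binding.

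**Figure D1:**
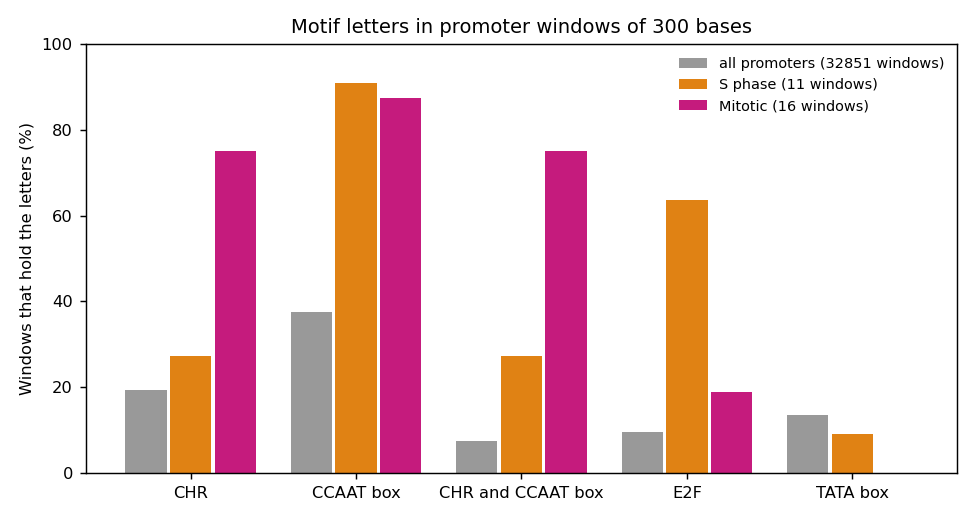
The bars give the percent of 300-base promoter windows that hold each set of letters on either strand, for all 32851 RefSeq windows, the 11 windows of S phase members and the 16 windows of mitotic members. CHR letters stand at 75.0% in the mitotic windows and 27.3% in the S phase windows, and E2F letters at 18.8% and 63.6%.

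Among the 42 members, the D cyclins and CDK inhibitors stood above all mitotic genes, and the median of the replication genes lay between. The G1 kinases were split: Cdk4 lay above all 20 mitotic genes, and Cdk6, at 4.80 and 4.36 TPM, lay below Top2a. All 3 D cyclins lay above all 20 mitotic genes in both libraries. The median over D cyclins was 15.6 TPM in replicate 1 and 16.0 TPM in replicate 2 (15.8 ± 0.332, SD, n = 2). Over the 20 mitotic genes the median was 2.33 and 2.52 TPM (2.43 ± 0.134, SD, n = 2). The log2 ratio of these medians was 2.70 ± 0.05 (SD, n = 2), a gap many times the spread between the libraries. The inhibitors Cdkn1a and Cdkn1b lay above all 20 mitotic genes as well, with a log2 ratio of medians of 2.95 ± 0.18 (SD, n = 2). The S phase median was 5.02 and 5.78 TPM (5.40 ± 0.537, SD, n = 2), which is 2.15 and 2.29 times the mitotic median. Of the 11 S phase genes, 10 lay above the mitotic median in both libraries, and Pcna, Mcm7 and Mcm6 lay above every mitotic gene. The 4 genes of entry into S phase had a median of 3.75 and 3.64 TPM, with 0 of 4 above all mitotic genes, so these groups overlapped.

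**Figure D2:**
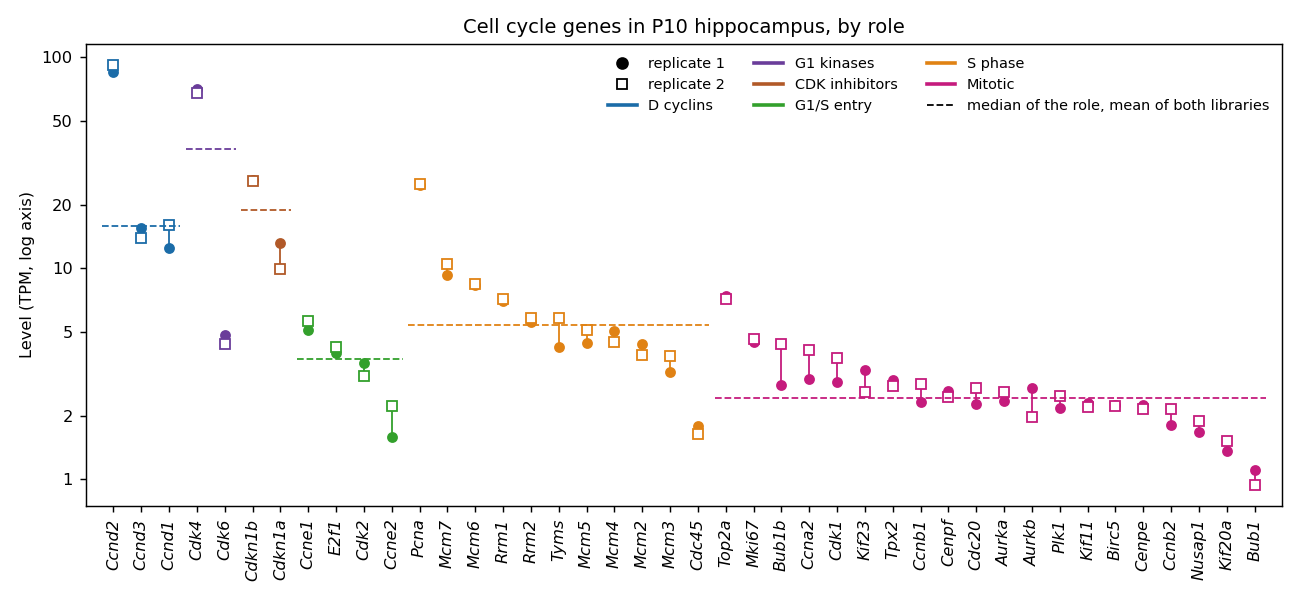
Levels of the 42 members in TPM on a log axis, grouped by role, with filled circles for replicate 1, open squares for replicate 2, and dashed lines for the role's median averaged over both libraries. Ccnd2 and Cdk4 stand highest at 88.5 and 69.1 TPM on average, and the mitotic genes lie between 1.02 (Bub1) and 7.28 (Top2a).

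Set against the whole transcriptome, the members were mostly weakly present. Of the 42, 41 reached 1 TPM in both libraries. The exception was Bub1, a spindle checkpoint kinase, at 1.11 and 0.94 TPM. The median over all members was 3.42 and 3.98 TPM, while the 13075 protein-coding genes at 1 TPM or more in both libraries had a median of 15.7. Ccnd2, Cdk4, Cdkn1b and Pcna exceeded that median in both libraries, and 34 members stayed under 10 TPM in both. Together the members took 0.0659% of the counts of annotated genes in replicate 1 (exact Clopper-Pearson 95% interval 0.0650 to 0.0668) and 0.0670% in replicate 2 (0.0660 to 0.0679). These intervals, which overlap, cover counting error only. The D cyclins alone took 0.0275% and 0.0282% of counts, the S phase genes 0.0115% and 0.0119%, and the mitotic genes 0.0126% and 0.0130%.

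Among the D cyclins, which bind Cdk4 and Cdk6, Ccnd2 led. Ccnd2 (ENSMUSG00000000184.12, chromosome 6, 127125162 to 127152193, mm10) stood at 85.2 TPM in replicate 1 and 91.8 in replicate 2, above 92.0% of the detected protein-coding genes. Ccnd1 (ENSMUSG00000070348.5, chromosome 7, 144929931 to 144939925) stood at 12.4 and 16.0 TPM. Ccnd3 (ENSMUSG00000034165.16, chromosome 17, 47505051 to 47599691) stood at 15.6 and 13.8 TPM. Ccnd2 was thus far above both, with a log2 TPM ratio to Ccnd1 of 2.77 and 2.51 (2.64 ± 0.18, SD, n = 2), or 6.23-fold. Between Ccnd3 and Ccnd1 there was no stable order: the log2 TPM ratio was 0.32 in replicate 1 and -0.21 in replicate 2, and their ranges overlapped. The protein-coding transcript Ccnd2-201 took 91.4% and 91.2% of the Ccnd2 counts, and all protein-coding transcripts together 98.2% and 91.6% of the Ccnd2 TPM.

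The 2 kinases of the D cyclins were far apart in TPM, by an amount that depended on the transcripts counted. Cdk4 (ENSMUSG00000006728.12, chromosome 10, 127063534 to 127067920) stood at 70.3 and 67.9 TPM. Cdk6, its close relative, stood at 4.80 and 4.36 TPM. The log2 TPM ratio of Cdk4 to Cdk6 was 3.89 ± 0.06 (SD, n = 2). Most of the Cdk4 level was not assigned to protein-coding transcripts: these held 21.8% and 21.1% of the Cdk4 TPM, while retained-intron transcripts held 60.7% and 63.3%. On protein-coding transcripts alone Cdk4 stood at 15.3 and 14.3 TPM, and the log2 ratio to Cdk6 was 1.69 ± 0.04 (SD, n = 2), an alternative chosen after seeing the data. The same alternative left Ccnd2 over Ccnd1 at 2.73 ± 0.13, so the cyclin gap was then wider than the kinase gap, whereas over all transcripts the kinase gap was the wider. By counts the protein-coding share of Cdk4 was larger, 35.6% and 36.2%, because short transcripts weigh more in TPM than in counts. The Cdk4 exons share 641 bases with exons of Tspan31 on the opposite strand, which had 848 and 758 counts. The Cdk4 counts were whole numbers (1184 and 1092) with a posterior SD of 0, so no Cdk4 read was divided with another gene. In all, 15 of the 42 members share exonic bases with a gene on the opposite strand, and 12 of these 15 had whole counts with a posterior SD of 0 in both libraries. The strand setting of the counting was not given in the sources used here.

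Both CDK inhibitors among the members were above the mitotic members, and Cdkn1b was the higher. Cdkn1b (ENSMUSG00000003031.14, chromosome 6, 134920401 to 134925513), which encodes p27, stood at 26.2 and 25.9 TPM. Cdkn1a (ENSMUSG00000023067.14, chromosome 17, 29090976 to 29100727), which encodes p21 and is a known target of p53, stood at 13.2 and 9.92 TPM. Cdkn1b hardly moved between the libraries, while Cdkn1a was lower in the library labelled male, replicate 2. The log2 TPM ratio of Cdkn1b to Cdkn1a was 1.18 ± 0.27 (SD, n = 2), with the same sign in both. Against the leading cyclin, Cdkn1b lay lower, with a log2 TPM ratio to Ccnd2 of -1.76 ± 0.09 (SD, n = 2). Every read of both inhibitors was assigned to protein-coding transcripts in the alignment-based table.

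Of the genes of entry into S phase, the E cyclins were unequal. Ccne1, which activates Cdk2, stood at 5.09 and 5.65 TPM. Ccne2, the second E cyclin, stood at 1.59 and 2.23 TPM. Ccne2 was below Ccne1 in both libraries, with a log2 TPM ratio of -1.46 ± 0.22 (SD, n = 2). E2f1, an activating E2F factor that switches on replication genes, stood at 3.96 and 4.21 TPM. Cdk2 itself stood at 3.54 and 3.07 TPM and could not be ordered against the mitotic kinase Cdk1, since the log2 TPM ratio was 0.28 in replicate 1 and -0.29 in replicate 2.

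Within S phase, the gene of the replication clamp stood above all other members of the group. Pcna (ENSMUSG00000027342.14, chromosome 2, 132249162 to 132253314), the sliding clamp of DNA polymerase that also acts in repair, stood at 24.7 and 24.9 TPM. This was 5.37 times Mki67, from a log2 TPM ratio of 2.43 ± 0.02 (SD, n = 2). Its counts were not all unique to it: the posterior SD was 6.16 reads of 743 in replicate 1 and 5.71 of 700 in replicate 2, and the pseudogene Pcna-ps2 had 34.19 and 20.99 counts. In the FASTQ-based table Pcna stood at 50.8 and 46.3 TPM, and its log2 TPM ratio to Mki67 was 2.77. There 42.2% and 33.3% of its TPM was on Pcna-203, which is not protein-coding, against 1.09% and 1.04% by alignment. Its level and transcript make-up thus depended on the quantification. The 6 subunits of the MCM2-7 helicase, which assemble in equal numbers on DNA, were not equal in RNA. They ranged from 3.54 ± 0.438 TPM for Mcm3 to 9.88 ± 0.785 TPM for Mcm7 (SD, n = 2), and the highest was 2.89 and 2.71 times the lowest. Mcm6 at 8.33 and 8.43 TPM lay below Mcm7 at 9.33 and 10.4 TPM without overlap, but on protein-coding transcripts the order was lost (7.65 and 8.25 for Mcm6, 7.45 and 8.34 for Mcm7). Mcm5, Mcm4 and Mcm2 lay between 3.88 and 5.10 TPM. The Mcm7 exons overlap those of Ap4m1 by 321 bases and of Cops6 by 64 bases on the opposite strand.

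The nucleotide supply genes lay near the middle of the S phase genes. Rrm1, the large subunit of ribonucleotide reductase, stood at 6.99 and 7.17 TPM. Rrm2, the small subunit, which is made in S phase, stood at 5.56 and 5.78 TPM. The log2 TPM ratio was 0.32 ± 0.01 (SD, n = 2), and 0.98 in the FASTQ-based table, so its size depended on the quantification. Tyms, thymidylate synthase, stood at 4.22 and 5.83 TPM, of which 17.1% and 18.6% was on protein-coding transcripts. Cdc45, a part of the replicative helicase, was the lowest S phase member at 1.79 and 1.64 TPM and lay below the mitotic median.

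The mitotic genes ran from 1.02 TPM for Bub1 to 7.28 for Top2a on average, with Top2a and Mki67 at the top. Top2a (ENSMUSG00000020914.17, chromosome 11, 98992943 to 99024189), the topoisomerase that untangles chromosomes, stood at 7.42 and 7.13 TPM. Mki67 (ENSMUSG00000031004.8, chromosome 7, 135689784 to 135716361), which encodes the proliferation marker Ki-67, stood at 4.46 and 4.61 TPM. Bub1b, the checkpoint protein BubR1, followed with 2.79 and 4.38 TPM, a range that overlapped those of Ccna2 and Cdk1. On protein-coding transcripts alone Bub1b had 1.41 and 1.94 TPM, below Ccna2 at 3.00 and 3.34. Top2a was above all other mitotic genes in both libraries, although only 69.4% and 69.8% of its TPM (93.1% and 93.0% of its counts) was on the protein-coding transcript. Mki67 was assigned to Mki67-201 alone, and by protein-coding transcripts alone Top2a stood at 5.15 and 4.97 TPM, still above Mki67.

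The cyclins and kinase that drive mitosis were low. Cdk1, the mitotic kinase, stood at 2.89 and 3.77 TPM. Ccna2, cyclin A2, stood at 3.00 and 4.09 TPM. Ccnb1, cyclin B1, stood at 2.31 and 2.83 TPM. All of these lay under the 3 D cyclins in both libraries: the log2 TPM ratio of Ccnd2 to Ccnb1 was 5.06 ± 0.12 (SD, n = 2), or 33.3-fold. Cyclin B2 (Ccnb2) was below Ccnb1 in both, with a log2 TPM ratio of -0.36 ± 0.03 (SD, n = 2). It rested on few reads, with 56 and 62 counts for Ccnb2 and 103 and 101 for Ccnb1. An SD of 2 values may understate the counting error of so few reads. The size also depended on the transcripts counted, at -0.17 on protein-coding transcripts and -0.51 in the FASTQ-based table. Ccna2 was above Ccnb1 in both libraries, with a log2 TPM ratio of 0.44 ± 0.11. Reads of Ccnb1 were the least certain among the members, with a posterior SD of 3.20% of its count in replicate 1.

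Apart from Bub1b and Bub1, the kinases and checkpoint genes of mitosis lay close together. Aurka, a kinase of spindle poles, stood at 2.36 and 2.58 TPM. Aurkb, the kinase of the chromosomal passenger complex, stood at 2.70 and 1.98 TPM. The Aurora kinases changed order between the libraries, and their log2 TPM ratio of -0.09 ± 0.39 (SD, n = 2) was within the spread. Bub1b lay above Bub1 in both libraries by 1.68 ± 0.60 in log2 TPM. Retained-intron transcripts held 49.6% and 55.8% of the Bub1b TPM, and the log2 ratio was 0.85 on protein-coding transcripts and 1.04 in the FASTQ-based table. Plk1, the Polo-like kinase, had 2.17 and 2.47 TPM. Cdc20, an activator of the anaphase-promoting complex, had 2.26 and 2.70 TPM. Birc5, the passenger protein survivin, had 2.25 and 2.23 TPM. The range of Plk1 overlapped those of Cdc20 and Birc5, so it could not be ordered against them.

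The spindle motors and kinetochore genes lay on both sides of the mitotic median. Kif23, a motor of cytokinesis, had 3.30 and 2.58 TPM, and Kif11, the bipolar spindle motor, 2.30 and 2.19. On protein-coding transcripts alone Kif23 had 0.76 and 0.90 TPM, below the mitotic median by that measure. Kif20a, another cytokinesis motor, had 1.36 and 1.51 TPM and shares 1271 exonic bases with Cdc23 on the opposite strand, which had 1461 and 1419 counts. Cenpf and Cenpe, both of the outer kinetochore, differed by a log2 TPM ratio of 0.20 ± 0.03 (SD, n = 2) with Cenpf the higher. The microtubule proteins Tpx2 and Nusap1 averaged 2.85 ± 0.134 and 1.78 ± 0.148 TPM (SD, n = 2). Down the whole order of 42, 31 of the 41 neighbouring pairs overlapped between libraries. The 10 gaps were at the top, between Ccnd2, Cdk4, Cdkn1b, Pcna and Ccnd3, between Mcm7, Mcm6 and Top2a, between Rrm1 and Rrm2, between Mki67 and Mcm2, and at the bottom between Cdc45, Kif20a and Bub1.

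The transcript tables showed which RNAs stand behind these levels. Protein-coding transcripts held over 90% of a member's TPM in both libraries for 19 of the 42, and 6 members have no other kind annotated. In 3 members they held under 50% in both: Cdk4, Tyms and Kif23. In Kif23 the share was 23.0% and 34.7% of TPM but 60.1% and 66.4% of counts. With levels from protein-coding transcripts only, the S phase and mitotic medians became 4.80 and 2.15 TPM, and the 3 D cyclins again lay above all 20 mitotic genes.

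**Figure D3:**
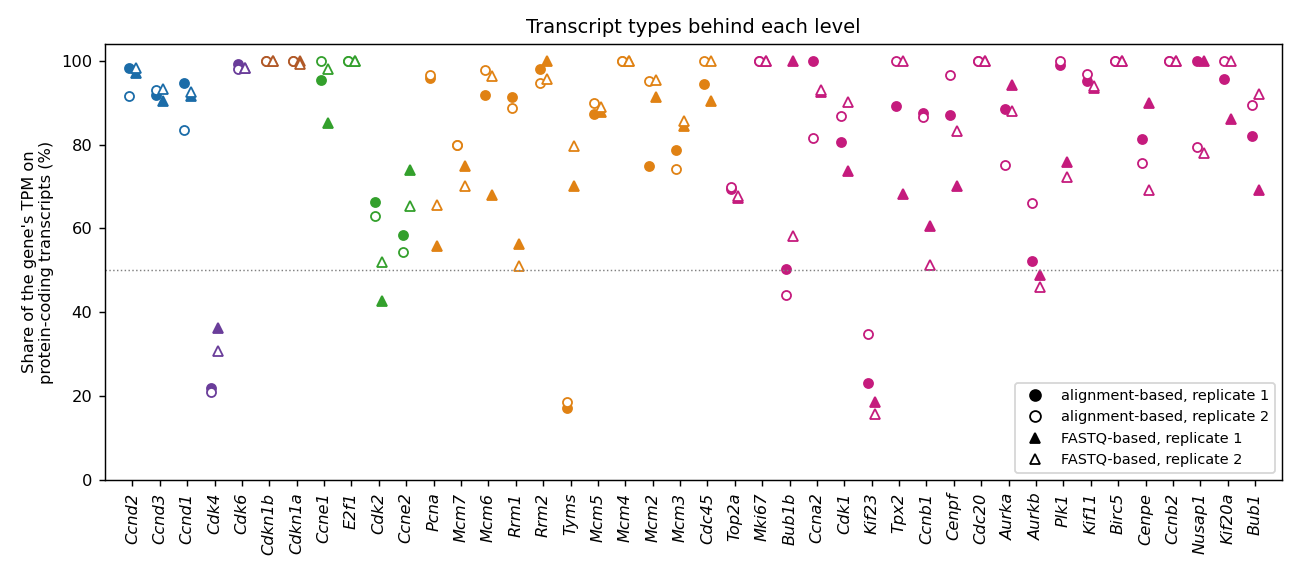
Percent of each member's TPM on protein-coding transcripts, by role (colours as in the plot of levels), for both libraries (filled and open) and both quantifications (circles alignment-based, triangles FASTQ-based). Cdk4, Tyms and Kif23 lie under the dotted 50% line in the alignment-based table, and Tyms rises to 70.1% and 79.6% in the FASTQ-based one.

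A second quantification of the same reads, from the FASTQ files, gave like counts for most members. The count by this route was within 0.8 to 1.25 times the alignment-based count in both libraries for 38 of 42. Over the 42 members, Spearman's rho between the TPM of the routes was 0.955 in replicate 1 and 0.942 in replicate 2, across genes and on the same reads. Tyms was the furthest apart: 138 and 144 alignment-based counts stood against 421 and 410 FASTQ-based counts. The difference sat on 1 transcript, Tyms-201, which is protein-coding and had 47.7 and 36.7 counts by alignment and 326 and 330 from the FASTQ files. By that route Tyms was at 9.72 and 9.37 TPM, mostly on protein-coding transcripts, so its transcript make-up depended on the quantification. Birc5 had 57 and 51 counts by alignment and 94.0 and 92.5 from the FASTQ files, on the same pair of protein-coding transcripts. Rrm1 had 1.34 and 1.36 times more, mainly on the retained-intron transcript Rrm1-204, with 12.2 and 11.3 against 177 and 154 counts. Kif23 was the fourth member outside the range, at 1.22 and 1.31 times. Cdk4 kept a minority of protein-coding TPM by both routes, at 36.2% and 30.7% in the FASTQ-based table.

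Between the 2 libraries the members differed about as often as other genes did. A two-sided exact binomial test of the expected counts, with Benjamini-Hochberg adjustment over the 12881 genes whose mean count reached 100, called 11.8% of genes at an adjusted p under 0.05, 6.33% higher and 5.47% lower in the library labelled male, replicate 2. With 1 library on each side, it contrasts the reads of 2 libraries and says nothing of a condition. Of the 42 members, 30 had enough counts to be tested and 3 were called, a share near that of all genes and so no result about the members. None of the 3 reached a 2-fold difference, which 0.303% of all genes did with a call. The median log2 ratio of the tested members was 0.04, against 0.00 for all tested genes, and 16 of the 30 were higher in the library labelled male, replicate 2. Of the 10 tested S phase genes 0 were called. By the same test 0 of them had an unadjusted p under 0.05, against 22.99% of all tested genes. That share is not matched for counts. The test calls smaller differences in genes with more reads, such as Grin2b with 48801 and 45996 counts, called at a ratio of 1.02. The 10 S phase genes had from 138 (Tyms) to 743 (Pcna) counts, so the lack of calls is no measure of stability.

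The inhibitor Cdkn1a was lower in the second library, with 514 counts in replicate 1 against 359 in the library labelled male, replicate 2. After scaling this was a log2 ratio of -0.40 (ratio 0.755, 95% counting interval 0.658 to 0.866, adjusted p = 0.000934 by the exact binomial test). Ccnd1 had 952 and 1010 counts, a log2 ratio of 0.20 (ratio 1.15, interval 1.05 to 1.26, adjusted p = 0.0255 by the exact binomial test). Its exons share 1100 bases with LTO1 on the opposite strand, which had 520 and 444 counts. Bub1b had 120 and 156 counts, a log2 ratio of 0.49 (ratio 1.41, interval 1.10 to 1.80, adjusted p = 0.0475 by the exact binomial test), and the call was lost when genes with fewer counts were added to the test (adjusted p = 0.0597). Ccnd3 missed the threshold with 661 and 520 counts (log2 ratio -0.23, adjusted p = 0.0516 by the exact binomial test) and passed it with DESeq2 size factors (0.0421), total counts (0.0422) and FASTQ-based counts (0.0246). The called cyclin and inhibitor moved in opposite directions while the summed choroid plexus, ependymal, myelin and microglia markers were higher and the erythroid and meningeal ones lower in the second library, and the part of such tissue in these differences was not tested. The libraries also differed in the sex-linked genes Xist and Ddx3y. With 1 library on each side, that cannot be told apart from any other difference between them.

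**Figure D4:**
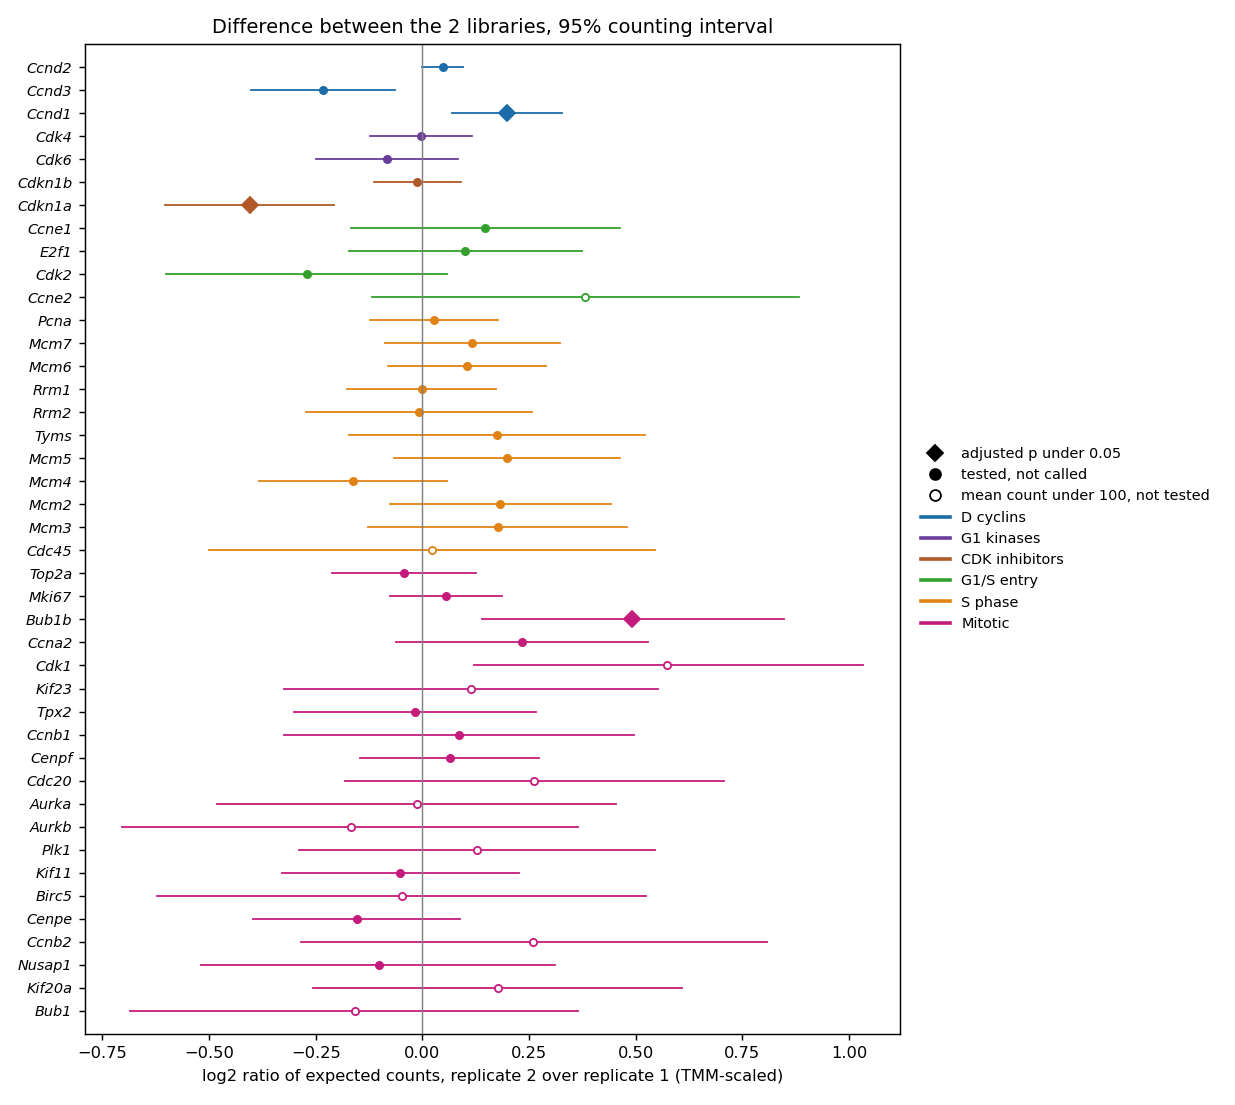
Log2 ratio of TMM-scaled expected counts, replicate 2 over replicate 1, for the 42 members by role, with exact 95% counting intervals as lines. Diamonds mark Ccnd1, Cdkn1a and Bub1b, the 3 called members, and open circles the 12 members whose mean count was under 100 and which were not tested.

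The 12 members without a test at the minimum mean count of 100 were Ccne2, Cdc45 and 10 mitotic genes. Cdk1 was among them, with 72 and 99 counts and a ratio of 1.49 (95% counting interval 1.09 to 2.04). For the other 11 the interval of the ratio included 1. For Birc5 it ran from 0.650 to 1.44 and for Ccnb2 from 0.821 to 1.75, so differences within these bounds were not detectable at this depth. The intervals are not adjusted for the number of genes. With a minimum mean count of 10, all 42 members were tested, and Cdk1 was not called by the exact binomial test.

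Further genes of the same steps, from lists chosen by function with earlier results of these data known, had the same general order of medians. The list of 20 G1 regulators had 16 members at 1 TPM or more in both libraries and a median of 7.45 and 4.82 TPM. The list of 37 S phase genes had 33 and a median of 3.85 and 4.14 TPM. The list of 46 genes of G2 and mitosis had 39 and a median of 2.69 and 2.41 TPM. The G1 median lay above the S phase median in both libraries, but its spread was wide (6.13 ± 1.86, SD, n = 2, against 3.995 ± 0.205). The median of G2 and mitosis was the lowest in each library. This order was of medians and did not hold gene by gene. Ube2s of the mitotic list, at 58.0 TPM on average, lay above Ccnd1, Ccnd3 and Cdkn1a. The inhibitor gene Cdkn2a, at 0.33 TPM on average, lay below every mitotic member.

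In the G1 list the highest was Fbxw7, the ubiquitin ligase subunit that targets cyclin E, at 53.4 and 54.8 TPM. Cdkn2d, an inhibitor of Cdk4 and Cdk6, stood at 31.2 and 31.1 TPM. Tfdp1, the dimer partner of E2F factors, stood at 31.77 and 30.04 TPM. At the other end was Cdkn2a, the locus of p16 and p19Arf, at 0.29 and 0.37 TPM. Of the 15 tested genes of this list 1 was called: Cdkn1c, which encodes the inhibitor p57, had 8.31 TPM in replicate 1 and 4.14 TPM in the library labelled male, replicate 2. Its log2 count ratio was -0.67 (238 and 138 counts, ratio 0.627, interval 0.505 to 0.777, adjusted p = 0.000258 by the exact binomial test), in the same direction as Cdkn1a. The meningeal and erythroid markers given above were lower in that library too, and their part in this was not tested. The split in Xist and Ddx3y between the libraries cannot be told apart from the Cdkn1c difference.

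In the S phase list the highest were Orc4 and Orc3, subunits of the origin recognition complex, at 35.5 and 33.5 TPM and at 25.2 and 25.8 TPM. Rpa1, which coats single-stranded DNA, stood at 27.8 and 26.5 TPM. The lowest was another subunit of the same complex, Orc1, at 0.47 and 0.21 TPM (11 and 7 counts). Of the 24 tested genes 0 were called by the exact binomial test, against 11.8% of all genes, and 1 had an unadjusted p under 0.05, against 22.99%. The shares over all genes are not matched for counts, so few calls are no measure of stability. In the list of G2 and mitosis the highest were regulators of protein degradation. Ube2s, a ubiquitin-conjugating enzyme of the anaphase-promoting complex, stood at 58.0 TPM in each library. Fzr1, the activator Cdh1 of that complex, stood at 38.2 and 34.5 TPM, and the checkpoint protein gene Bub3 at 25.29 and 25.02 TPM. The lowest was Sgo1, which protects centromeric cohesion, at 0.56 and 0.38 TPM. Of the 27 tested genes 0 were called by the exact binomial test and 1 had an unadjusted p under 0.05. The same 11.8% and 22.99% of all genes stand beside these, again not matched for counts.

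**Figure D5:**
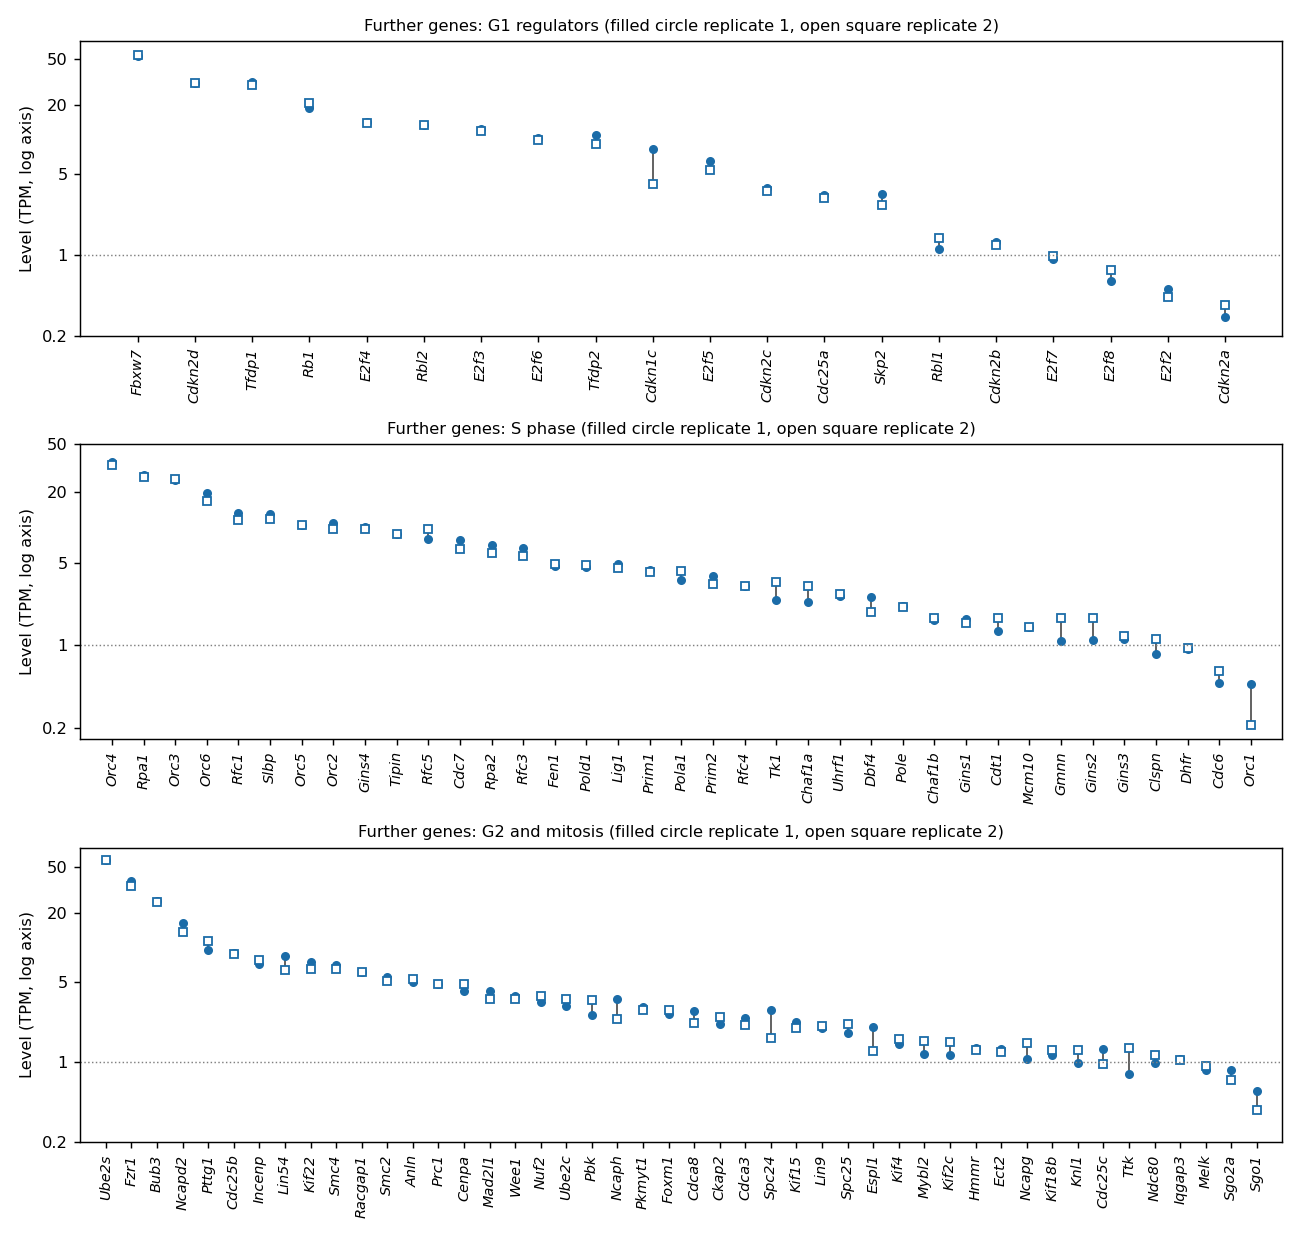
Levels in TPM on a log axis of 20 further G1 regulators, 37 further S phase genes and 46 further genes of G2 and mitosis, ordered by level, with filled circles for replicate 1 and open squares for replicate 2 and the detection limit of 1 TPM dotted. Each list runs from genes above 25 TPM, such as Fbxw7, Orc4 and Ube2s, to genes under 1 TPM, such as Cdkn2a, Orc1 and Sgo1.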

How the data were processed

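Total RNA libraries of 10-day B6CASTF1/J hippocampus, 2 replicates of 1 group, were read from the deposited gene and transcript tables. Per the deposited descriptions, the first tables hold expected counts from transcriptome alignments to mm10 with GENCODE M21, without normalization. TPM in the deposited tables sum to 1 fixed total per library, spike-ins among the rows. Estimated counts and TPM made from the FASTQ files were deposited as another transcript table. The programs, not given in the sources used here, left headers of the kind that RSEM and kallisto produce.

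Members were matched by symbol. Depth was 32035705 and 29747193 expected counts. The 97 spike-in rows (0.358% and 0.359% of counts) and 26248 rows that name no gene (2.81e-05% and 2.00e-05%) were left out. Expected counts were rounded and scaled by TMM (edgeR 4.0.16, DESeq2 1.42.0 for the alternative, R 4.3.3). Libraries were compared by a two-sided exact binomial test over genes whose mean count reached 100 (scipy 1.17.1, pandas 2.3.3, numpy 2.4.6, Python 3.11.15, matplotlib 3.10.9). The test was tried on simulated counts with counting error only. There it called 0.118% of 12696 unchanged genes and 47 of 50 genes changed 1.5-fold. The simulation held no further variation between libraries, so it does not show how often the test calls unchanged genes in these data. The biological coefficient of variation (edgeR, intercept only) was 0.0688 over 17874 genes. Log2 TPM ratios use a pseudocount of 0.1 and log2 count ratios a prior count of 0.5. Intervals are exact Clopper-Pearson at 95% and cover counting error only, since no molecular identifiers are named in the sources used here.

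The 42 members and all lists were chosen with earlier results of these data known. Named genes are all members, the 3 highest and the lowest of each further list with any called gene, and the highest of each marker list; others, and the cell types summed, were chosen after their values were seen. Nothing states that the replicates come from separate animals beyond their labels as biological replicates. Alternatives were the FASTQ-based table, other scalings, filters, pseudocounts and single libraries, and protein-coding transcripts only, which was chosen after seeing the data. The 2 parental alleles were not analysed here.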

Additional observations from a re-analysis of the deposited data

How the results depend on the processing

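Among the 42 members, the order D cyclins and inhibitors over S phase over mitotic genes kept its direction under every alternative run. The levels themselves moved with the scale. With the FASTQ-based table the median TPM was 23.7 for D cyclins, 57.0 for G1 kinases, 27.3 for CDK inhibitors, 6.12 for G1/S genes, 8.35 for S phase genes, 3.995 for mitotic genes and 5.81 for all members, and the members' share of counts was 0.0719%. With TPM rescaled to nuclear protein-coding genes these medians were 34.2, 79.8, 40.7, 8.00, 11.7, 5.26 and 8.02. With protein-coding transcripts only they were 13.8 for D cyclins, 9.67 for G1 kinases, 3.12 for G1/S genes, 4.80 for S phase genes, 2.15 for mitotic genes and 2.83 for all members. Means in place of medians gave 39.1 for D cyclins, 7.25 for S phase genes and 2.78 for mitotic genes. The log2 ratio to the mitotic median was 2.56, 2.77 and 1.07 for D cyclins, inhibitors and S phase genes with the FASTQ-based table, and 3.81, 2.75 and 1.38 with means. At a minimum of 5 TPM, 13 members were detected. Genes called at 2-fold between libraries numbered 176 with a mean count of at least 10 and 196 with no filter, against 39, since more genes with few counts were tested.

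Over the 16 gene pairs, 83 alternative values stayed within the spread, 37 moved beyond it and 8 changed sign. The value of 1 library alone cannot lie beyond the SD of both libraries. By construction it stays within that spread or changes sign. Rescaling TPM by 1 factor per library also leaves a ratio nearly unchanged. The 83 therefore overstate how stable the ratios were. The sign changes were Ccnd3/Ccnd1 (from 0.32 in replicate 1 alone to -0.21 in replicate 2 alone, and -0.74 by counts not divided by length), Cdk2/Cdk1 (0.25 with the FASTQ-based table, from 0.28 in replicate 1 alone to -0.29 in replicate 2 alone, and 0.90 by counts), Pcna/Mki67 (-0.39 by counts) and Aurkb/Aurka (0.45 with the FASTQ-based table, and from 0.19 in replicate 1 alone to -0.37 in replicate 2 alone). The long Mki67 transcript collects more reads per molecule, so counts reverse that order by construction. The call of Bub1b was lost with a mean count of at least 10 (adjusted p = 0.0597), with no filter (0.0889) and without chromosomes X, Y and M (0.0507), while Cdkn1a and Ccnd1 were called under each alternative run. Ccnd3, not called in the report, was called with DESeq2 size factors, total counts and FASTQ-based counts (adjusted p = 0.0421, 0.0422 and 0.0246). No paired analysis was possible because there is 1 group. Depth limits the mitotic genes most, since 10 of 20 had a mean count under 100.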

Other observations

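Several families in the further lists held members of very different level. These genes were chosen after their values were seen, and the values are a description. Of the origin recognition complex, Orc1 had 0.34 ± 0.184 TPM, while Orc2 and Orc5 had 10.2 ± 0.785 and 10.5 ± 0.0283, Orc6 18.1 ± 2.03, Orc3 25.5 ± 0.417 and Orc4 34.5 ± 1.44 (SD, n = 2). Cdc6, which loads the helicase together with Orc1, had 0.545 ± 0.0919 TPM. Of the pocket proteins that hold E2F factors, Rb1 had 19.9 ± 1.25 TPM and Rbl2 13.3 ± 0.00707, against 1.26 ± 0.191 for Rbl1. Of the E2F factors, E2f3, E2f4 and E2f6 had between 9.92 and 14.3 TPM in each library, while E2f2, E2f7 and E2f8 stayed under 1 TPM in both.

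The activators of the anaphase-promoting complex were also unequal. Fzr1, which acts in G1 and in cells that have left the cycle, had 36.4 ± 2.57 TPM, and Cdc20, which acts in mitosis, had 2.48 ± 0.311 (SD, n = 2). Among the INK4 inhibitors of Cdk4 and Cdk6, Cdkn2d had 31.1 ± 0.0354 TPM, Cdkn2c 3.71 ± 0.177, Cdkn2b 1.26 ± 0.0424 and Cdkn2a 0.33 ± 0.0566 (SD, n = 2).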
